A study of Sus scrofa domesticus with 4 samples.

Results

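Growth hormone and prolactin are the products of the somatotrophs and lactotrophs of the anterior pituitary, and their transcripts were followed here in porcine pituitary cells cultured with or without adiponectin. The set was 9 genes: GH1, PRL, POU1F1, SSTR5, SSTR2, DRD2, GHR, PRLR and SOCS2. Their probes were taken by matching the accession printed for each probe to RefSeq annotation of the pig assembly Sscrofa11.1. This gave 14 of the 43603 probes of the array and 8 of the 9 genes. DRD2, the dopamine receptor, had no probe under this match and was not analysed here. SOCS2 entered the set with its ratio in these data already known.

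The cells were primary cultures from the anterior pituitaries of 4 mature gilts (Large White x Polish Landrace, aged 7 to 8 months). The gilts were mid-luteal, at days 10 to 12 of their oestrous cycle, although a tag in the labels gives this stage as a period of pregnancy. After 48 h of preculture, both groups spent 24 h in serum-free medium with bacitracin, as untreated controls or with recombinant human adiponectin at 10 µg/ml. Adiponectin is a hormone secreted by adipose tissue. Each of 4 arrays carried treated RNA in one dye and control RNA in the other. By the channel labels, Cy5 marked the treated RNA of arrays 1 and 3, and Cy3 that of arrays 2 and 4. The labelling protocol instead puts treated RNA in Cy5 throughout, so the direction of every ratio below rests on the channel labels. The labels tie no gilt to an array, and p-values measure only the spread between these 4 arrays.

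In the pituitary, the transcription factor encoded by POU1F1 (also called PIT-1) binds the promoters of the growth hormone and prolactin genes and is needed for the cells that make both hormones. Somatostatin restrains growth hormone release through inhibitory receptors, among them those encoded by SSTR2 and SSTR5, and dopamine restrains prolactin. Both hormones signal through cytokine receptors, encoded by GHR and PRLR, to JAK2 and STAT5. SOCS2 is induced by that pathway and dampens it.

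The first question was whether adiponectin went with a different level of either hormone transcript. Both hormone genes gave strong signals on every array, and the fitted ratios of treated over control were slightly below 0 with intervals that held 0. GH1 had a ratio of -0.09 on the log2 scale (0.940-fold, 95% interval 0.827 to 1.07-fold, n = 4 arrays). The first of 4 prolactin probes had a ratio of -0.07 (0.95-fold, 0.832 to 1.08-fold, n = 4 arrays). Neither interval reached below 0.827-fold or above 1.08-fold.

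The GH1 probe (A_72_P232612) had scanner signals in treated cells of 42739, 41159, 33117 and 35171 on arrays 1 to 4. In control cells the same probe had 39473, 48904, 36432 and 36156. Treated cells were brighter on array 1 and dimmer on the other 3 arrays, and the ranges of the groups overlapped. After loess normalization the ratios on arrays 1 to 4 were 0.17, -0.40, -0.07 and -0.06. The value on array 2 was the lowest and that on array 1 the highest. Leaving out array 2 gave a fitted ratio of -0.004, leaving out array 3 gave -0.03 and leaving out array 1 gave -0.15. Leaving out array 4 gave -0.18 (-0.33 to -0.02; limma adjusted p = 0.266). By limma, the adjusted p over all 25918 tested probes was 0.9999.

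PRL was represented by 4 probes, all well above background in both channels of every array. The first (A_72_P027831) had treated signals of 67105, 67771, 32679 and 43512 and control signals of 76357, 66539, 42500 and 38487. Both groups were high on arrays 1 and 2 and low on arrays 3 and 4, and their ranges overlapped. Its loess ratios were 0.10, -0.31, -0.15 and 0.07, with 2 arrays on either side of 0. The scanner software's ratios for the same spots were -0.19, 0.03, -0.38 and 0.18, so the sign on arrays 1 and 2 depended on the normalization. The other PRL probes (A_72_P594739, A_72_P500876 and A_72_P651239) had treated signals between 13802 and 57155 and control signals between 14635 and 58013, each with array 1 the highest in both groups. The fitted ratios of the other 3 probes were -0.07, -0.15 and -0.11, so the sign was the same for all 4 probes. The probe at -0.15 had a value on 3 arrays, since its spot on array 1 had an uneven local background. Each of the 4 intervals held 0, and the lowest bound was 0.768-fold. The 4 probes share their RNA and are not replicates of the treatment. The first probe had a ratio of 0.02 without array 2, -0.01 without array 3, -0.14 without array 1 and -0.17 (-0.32 to -0.02; limma adjusted p = 0.305) without array 4. Both hormone genes thus had intervals below 0 in the fit that left out array 4, with no adjusted p past the threshold. Such intervals were common in that fit. By limma, 3061 probes had an unadjusted p under 0.05 there, against 717 with all 4 arrays.

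The normalization bears on these bright probes. With arrays centred on their median in place of loess, GH1 had 0.009 and PRL 0.03, both above 0, with intervals from -0.32 to 0.34 and from -0.32 to 0.38. With the scanner software's own ratio the values were -0.08 and -0.09. In bulk cultures fewer cells of a type and less RNA per cell cannot be told apart.

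**Figure D1:**
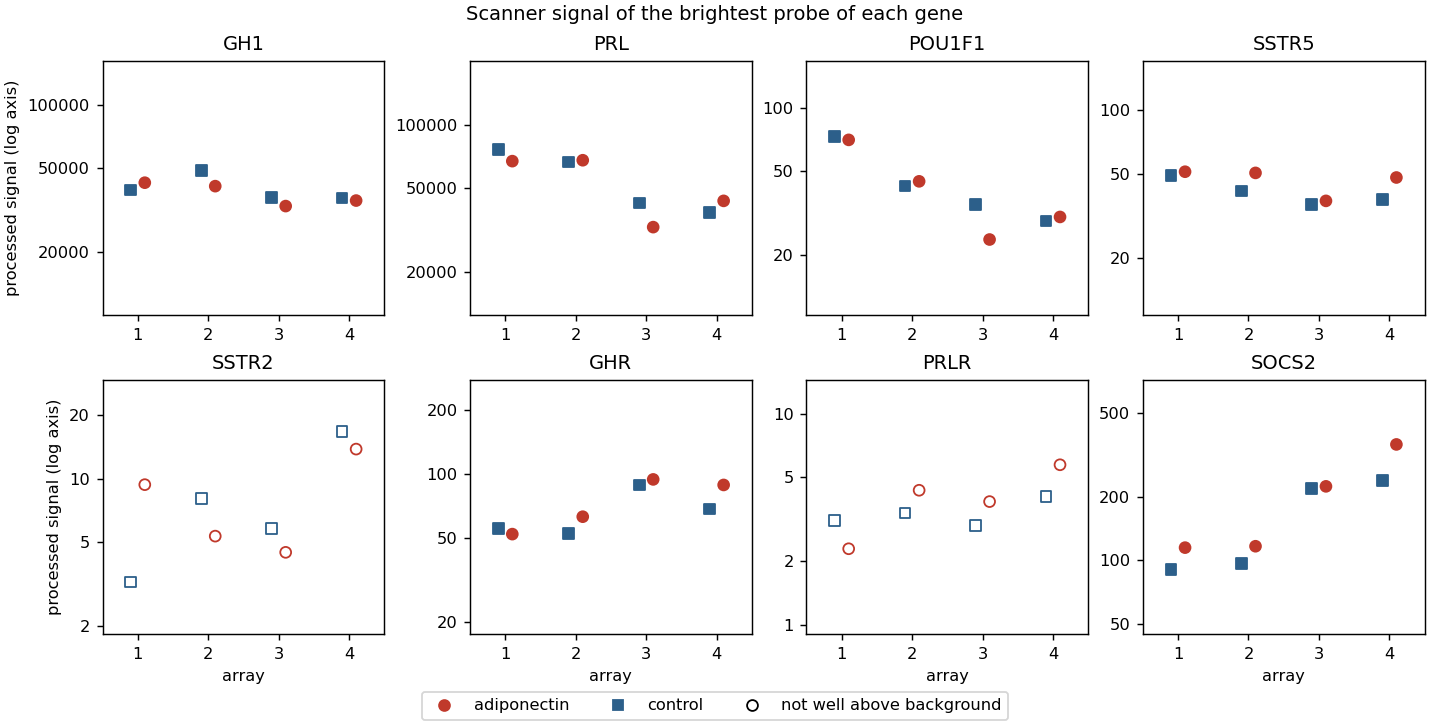
Scanner processed signal (log axis, each panel spanning the same fold range) of the brightest probe of each gene on arrays 1 to 4, in adiponectin-treated (circles) and control (squares) RNA; open symbols were not well above background. Filled treated and control symbols mostly lie close together, with wider gaps for POU1F1 on array 3 and SOCS2 on array 4. The open symbols of SSTR2 lie far apart on array 1. PRL and POU1F1 are higher on array 1 than on arrays 3 and 4, and SOCS2 is higher on arrays 3 and 4.

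The next question was whether POU1F1 or the inhibitory receptors differed. POU1F1 had a ratio of -0.08 (0.948-fold, 0.847 to 1.06-fold, n = 4 arrays; limma adjusted p = 0.9999). Its probe A_72_P077591 had treated signals of 70.5, 44.8, 23.8 and 30.4 and control signals of 72.8, 42.6, 34.8 and 29.1. Array 1 was the highest in both groups, array 3 had the widest gap between them, and the ranges overlapped. The loess ratios were -0.02, 0.06, -0.21 and -0.14. On array 4 the scanner software's ratio was 0.06, so the sign there depended on the normalization. The fit of the scanner software's ratio gave -0.12 (-0.37 to 0.14). A second POU1F1 probe (A_72_P537603) was not well above background in either channel of any array.

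SSTR5, which encodes a somatostatin receptor, had a ratio of 0.08 (1.06-fold, 0.961 to 1.17-fold, n = 4 arrays; limma adjusted p = 0.9999). Its probe (A_72_P303314) had treated signals of 51.3, 50.6, 37.3 and 48.2 and control signals of 49.3, 41.6, 35.8 and 38.03. The treated signal was the higher one on every array, although the ranges of the groups overlapped. The loess ratios were 0.10, 0.05, 0.09 and 0.10, at signals near the added offset of 50, which narrows ratios. The scanner software's ratios, with no offset, were 0.06, 0.28, 0.06 and 0.34, higher on arrays 2 and 4, where treated RNA was in Cy3. A ratio above 0 on 4 of 4 arrays was found for 3.01% of the 25043 tested probes with 4 values, and below 0 on all 4 for 2.93%. The fit of the scanner software's ratios gave 0.19 (-0.01 to 0.38). SSTR2, which encodes another somatostatin receptor, had treated signals of 4.48 to 13.8 and control signals of 3.24 to 16.7 and was not well above background on any array, so no ratio is given.

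The receptors and the feedback inhibitor were compared next. GHR, the growth hormone receptor, had a ratio of 0.11 at its first probe (1.08-fold, 0.978 to 1.20-fold) and 0.004 at its second (1.00-fold, 0.900 to 1.12-fold). The first (A_72_P441429) had treated signals of 51.9, 62.8, 94.3 and 88.7 and control signals of 55.2, 52.4, 88.7 and 68.3. Its array ratios were -0.003, 0.16, 0.03 and 0.28. Treated cells were brighter on arrays 2, 3 and 4 and dimmer on array 1. The second (A_72_P303059) had treated signals of 55.5, 44.4, 79.5 and 64.6 and control signals of 45.0, 49.2, 71.3 and 67.9. Its array ratios were -0.02, 0.06, -0.22 and 0.19. In both probes the 2 higher loess ratios were on arrays 2 and 4, where treated RNA was in Cy3, and the groups overlapped. The scanner software's ratios for the second probe were 0.30, -0.15, 0.16 and -0.07. Its sign on every array, and the arrays with the higher ratios, thus depended on the normalization. PRLR, the prolactin receptor, had 1 probe, with treated signals of 2.29 to 5.73 and control signals of 2.96 to 4.06, not well above background on any array.

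SOCS2 had the ratio farthest from 0 among these genes, 0.19 (1.14-fold, 1.01 to 1.28-fold, n = 4 arrays). Its first probe (A_72_P078026) had treated signals of 115, 117, 224 and 354 and control signals of 91.0, 96.7, 219.6 and 238. Treated cells were brighter on every array, by the widest margin on array 4 and by very little on array 3, and the ranges overlapped because both groups were higher on arrays 3 and 4. The loess ratios were 0.25, 0.10, 0.05 and 0.35. The second probe (A_72_P543073) had treated signals of 41.3, 60.5, 104 and 164 and control signals of 37.8, 27.1, 127.8 and 97.7. Its fitted ratio was 0.16 (0.997 to 1.24-fold), with loess ratios of -0.01, 0.36, -0.23 and 0.50, above 0 only with treated RNA in Cy3. By the scanner software's ratio, array 1 was above 0 as well, at 0.13.

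The difference in SOCS2 did not pass the threshold over all probes: by limma its adjusted p was 0.9999 and its unadjusted p 0.0341. Unadjusted p-values under 0.05 with a higher value were found for 1.04% of tested probes, and 1 of the 6 tested genes of this set had one. SOCS2 had been noted for this ratio in an earlier analysis of the same arrays, so its interval is a description and no independent support. Without array 2 its ratio was 0.25 (limma adjusted p = 0.0466), in a fit where 725 probes had an adjusted p under 0.05. Over the leave-one-out fits the ratio ran from 0.12 to 0.25, with adjusted p up to 1.00 by limma. Under the protocol's reading, with Cy5 for all treated RNA, the ratio was -0.04, which cannot be told apart from a dye difference. An offset of 50 was added to all signals, which draws dim probes towards 0. With the offset at 0 and the rest unchanged, the first probe had 0.23 (0.02 to 0.44). The scanner software's ratio has its own normalization as well as no such offset. With it the 2 probes had 0.30 (0.06 to 0.55) and 0.44 (0.16 to 0.71). In that fit 0 probes of the array had a limma adjusted p under 0.05.

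**Figure D2:**
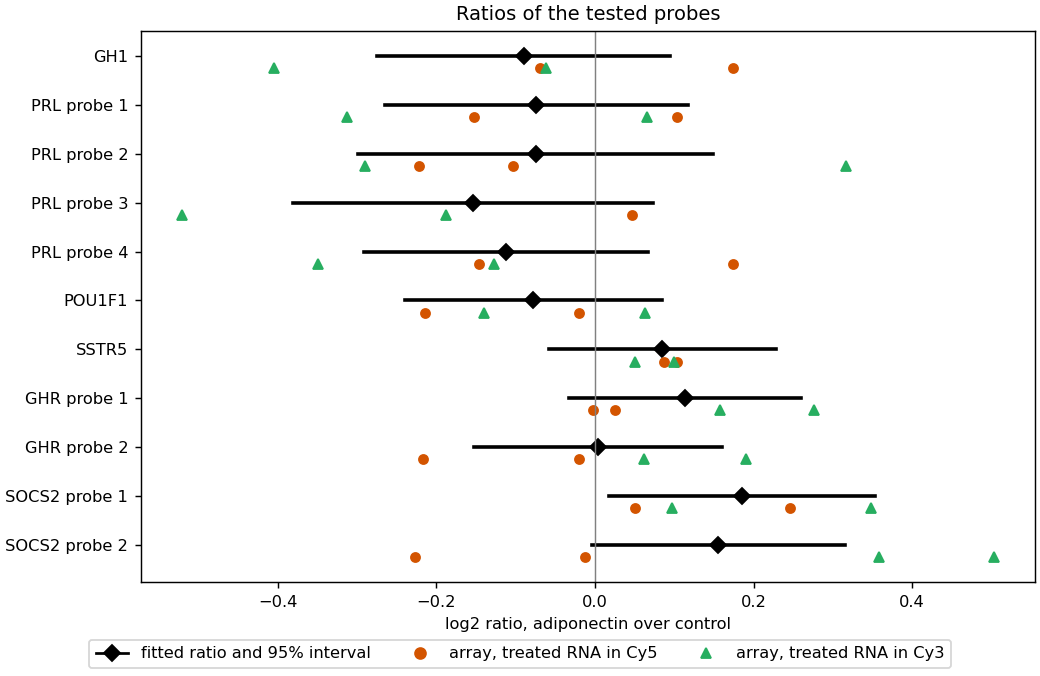
Log2 ratio of adiponectin over control for the 11 tested probes: diamonds and bars give the limma fit with a dye term and its 95% interval, circles and triangles the single arrays with treated RNA in Cy5 and Cy3. All intervals hold 0 except that of SOCS2 probe 1, from 0.02 to 0.35. Single arrays scatter widely for the hormone genes and for SOCS2 probe 2, where they run from -0.23 to 0.50.

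Over all probes, 0% of 25918 had an adjusted p under 0.05, and 0 of the 6 tested genes of the set did. At an unadjusted p under 0.05 the share was 2.77% (717 probes). Of the 6 genes, GH1, PRL and POU1F1 had fitted ratios below 0 and SSTR5, GHR and SOCS2 above 0, while 49.3% of all tested probes were below 0 and 50.7% above. The set split evenly, with a median ratio of 0.0055 against 0.001 over all tested probes. The dye term, the difference between the dyes whichever RNA they carried, passed an adjusted p of 0.05 for 6.21% of all tested probes and for 0 of the 11 probes of the set. It was 0.14 for GH1, 0.20 for the third PRL probe and -0.27 for the second SOCS2 probe (adjusted p = 0.055 by limma).

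Levels also varied between arrays, over the array as a whole and to unlike degrees in the genes of the set. Levels here are the mean log2 signal of both channels of an array after scaling between arrays, each set against the probe's own mean over the 4 arrays. PRL stood at 0.52, 0.40, -0.28 and -0.64 on arrays 1 to 4 at its first probe. The 3 PRL probes with values on all arrays were each highest on array 1 and lowest on array 4, with spans of 1.16, 1.61 and 1.53 on the log2 scale, or 2.24 to 3.04-fold. The median span of all tested probes was 0.34 (1.27-fold), and 2.53% of them had a span wider than that of the first PRL probe. For scale, the treated over control ratio was 0.07 in size for this probe and 0.04 at the median of all tested probes. A span, from the lowest to the highest array, is a wider measure than a fitted mean ratio.

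GH1 varied less, at 0.22, 0.27, -0.02 and -0.48, a span of 0.75 (1.68-fold). POU1F1 followed the order of PRL, at 0.43, 0.04, -0.17 and -0.30, and was likewise highest on array 1 and lowest on array 4. Its span was 0.73 on this scale and 1.32 to 1.72 on the scanner's processed signals under 3 other scalings, which carry no offset. SSTR5 had the same order, at 0.13, 0.04, -0.08 and -0.09. Its span was 0.22 here and 0.46 to 0.69 there. Under those 3 scalings the median span of all tested probes was 0.50 to 0.63. SOCS2 had nearly the opposite order: it stood at -0.32, -0.46, 0.33 and 0.45 at the first probe and at -0.28, -0.39, 0.39 and 0.28 at the second. Both SOCS2 probes were thus low on arrays 1 and 2 and high on arrays 3 and 4, with spans of 0.91 and 0.78, or 1.25 to 1.68 under the other scalings. GHR was highest on array 3 and lowest on array 2 at both probes, with spans of 0.52 and 0.34. On the processed signals without any scaling, the GH1 span was 0.37, below the median span of 0.63. There GH1, the first PRL probe, POU1F1 and SSTR5 had their lowest level on array 3 in place of array 4. Since treated and control RNA of an array share these levels, they are not part of the treatment comparison, and with 4 arrays they were not tested.

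**Figure D3:**
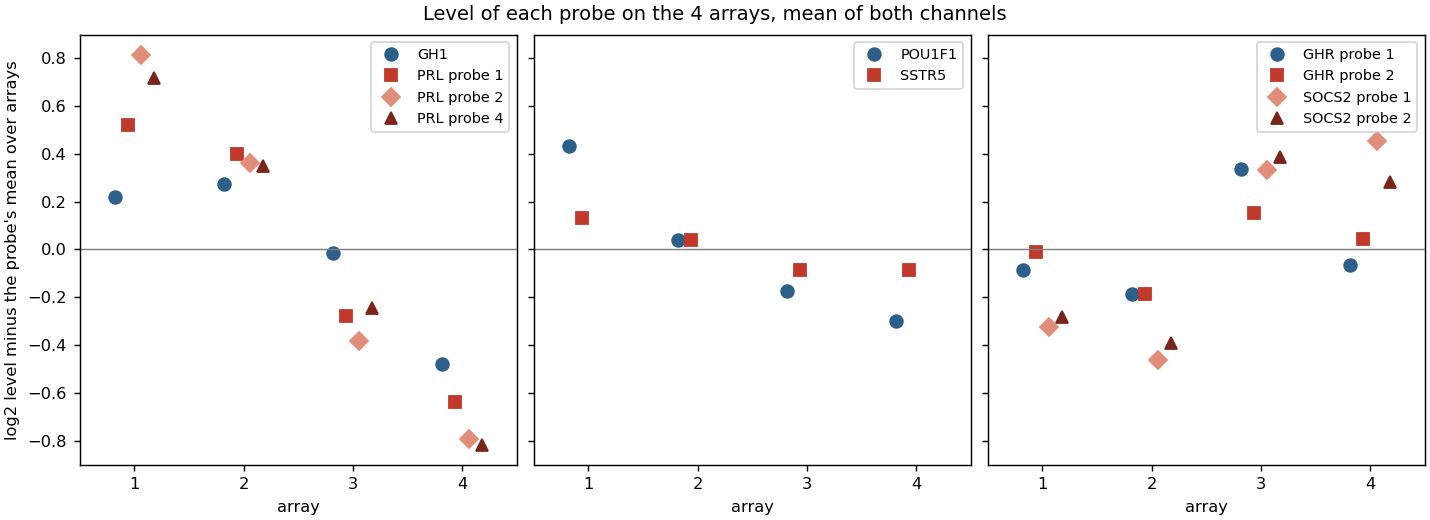
Level of each tested probe with values on 4 arrays, as the mean log2 signal of both channels minus the probe's own mean. PRL, POU1F1 and, over a narrow span, SSTR5 are highest on array 1 and lowest on array 4. Both SOCS2 probes are low on arrays 1 and 2 and high on arrays 3 and 4.

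Some markers of other cells also differed between arrays. The mean level of the 3 endothelial markers tested (PECAM1, CDH5 and SELP) stood at 1.10, 0.26, -0.48 and -0.88 on arrays 1 to 4, the same order as PRL and POU1F1. That of the 4 tested gonadotroph markers stood at -0.10, -0.58, 0.65 and 0.03. The macrophage markers stood at 0.12, -0.24, -0.01 and 0.13. Levels of the thyrotroph, corticotroph, folliculostellate and stem cell, fibroblast and pericyte, and red cell lists stayed between -0.18 and 0.18. The corticotroph and red cell levels rest on 1 gene each. The part of these cell types in the levels of PRL, POU1F1 and SOCS2 was not tested. Between treatments the somatotroph and lactotroph list had the median ratio farthest from 0, at -0.08, with 3 of its 4 genes lower. That list holds GH1, PRL and POU1F1 of the set. The other marker lists lay closer to 0: the median ratios were -0.04 for gonadotrophs (LHB at -0.15), -0.02 for corticotrophs (POMC at -0.07), 0.02 for thyrotrophs (TSHB at 0.02), -0.0004 for folliculostellate and stem cells, 0.002 for macrophages (CD14 at 0.008), 0.02 for fibroblasts and pericytes, -0.006 for endothelial cells (PECAM1 at -0.006) and 0.04 for the single red cell marker (HBE1). The endothelial selectin gene SELP, singled out after its values were seen, had -0.23 (-0.38 to -0.07; limma adjusted p = 0.9999). Summed endothelial signal ran from 242 to 1136 in treated and from 257 to 1458 in control RNA, and 3 of its 4 markers on the array were well above background. Summed macrophage signal ran from 616 to 981 and from 612 to 933, with 5 of 6 above background. Of the pituitary markers, GH1, PRL, POU1F1 and GHRHR, as well as LHB, FSHB, POMC and TSHB, were well above background, while PCSK2 was not. Detection alone does not identify the tissue, since the milk protein genes CSN1S1, CSN2, CSN3 and LALBA were also well above background.

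Genes whose values moved most like those of the set were named by the smallest root mean square difference over the 8 channel values, each centred within its dye, among 1826 named genes. The nearest to PRL were TOP2A, ABCG2 and CDC20, with differences of 0.07, 0.10 and 0.12 against a median of 0.49. POU1F1 was nearest to GAST, FABP3 and RAB27A (0.06, 0.09 and 0.10, median 0.31). For GH1 they were PC, RAP2B and TES (0.07, 0.09 and 0.09, median 0.32), and for SOCS2 EFNA1, ACY1 and ACSS2 (0.08, 0.08 and 0.09, median 0.44). The 8 values come from 4 arrays and mostly reflect the levels by array.

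The other genes that regulate or transmit the 2 hormones were described in 6 lists, 171 genes in all, of which 75 had a probe by the match and 64 were tested. In the limma fit 0 of the 64 had an adjusted p under 0.05, and 0 had an unadjusted p under 0.05, against 2.77% of all probes. Among the 1935 named genes tested, 21 with higher and 19 with lower values had such an unadjusted p by limma. Of the 64, 39 had ratios above 0 and 25 below, beside 1039 above and 896 below of the 1935 named genes tested.

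Of 13 tested releasing and inhibiting peptides and receptors, 8 had ratios above 0 (list median 0.03). EGFR, the epidermal growth factor receptor, had the smallest p, at -0.19 (-0.39 to 0.005), with -0.44, -0.22, -0.37 and 0.26 on arrays 1 to 4. NPY1R, a neuropeptide Y receptor, had 0.15 and the angiopoietin gene ANGPT2 0.10. GHRHR, through which growth hormone-releasing hormone acts on somatotrophs, had 0.03, and the thyrotropin-releasing hormone receptor TRHR 0.03. Both of these were chosen for their role after their values were seen. Of 6 tested lineage transcription factors, 4 were above 0 (median 0.02), with SOX2 at 0.10 and MSX1 at 0.07.

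Nuclear receptors that act on the hormone genes split 5 above to 4 below 0 (median 0.007), with RXRG at -0.07 and the glucocorticoid receptor NR3C1 at 0.08. Genes of cAMP and inhibitory G protein signalling split 5 to 5 (median -0.02, and 0.03 with median centring). RGS2, a regulator of G protein signalling, had -0.18 (-0.38 to 0.01), the inhibitory alpha subunit GNAI3 -0.14 and the phosphodiesterase gene PDE4A 0.10. GNAI3 was above 0 on array 2, and 3 of the 5 tested probes of PDE4A were below 0.

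Downstream of the receptors, 10 of 16 tested genes of JAK, STAT and SOCS signalling were above 0 (median 0.002). SOCS6, a relative of SOCS2, had 0.14, with 1.02 on array 1 and -0.30 to 0.05 on the others, and 1 of its 2 tested probes was below 0. SOCS3, another inhibitor of the same family, had -0.05. The transducers STAT5A and STAT5B, chosen after their values were seen, had -0.01 and 0.001. Of 11 tested target genes of the 2 hormones, 8 were above 0 (median 0.03), with IGF2 at 0.13 and MYC at -0.07. IGFALS, which encodes a serum carrier of insulin-like growth factors, was counted below 0. It was well above background on 4 of 4 arrays in control RNA but on 2 of 4 in treated RNA, so it entered the test through the group in which it was brighter, and its fitted value of -0.08 is uncertain. The median over all 1935 named genes tested was 0.006.

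**Figure D4:**
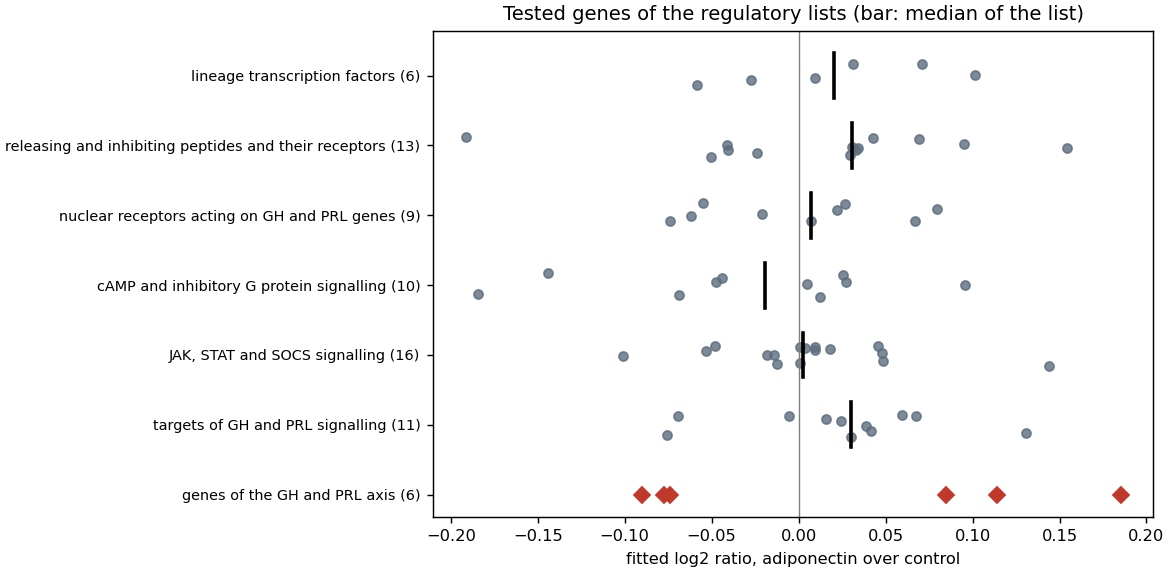
Fitted log2 ratios of adiponectin over control for the tested genes of the 6 regulatory lists (number tested in brackets, dots are genes, bars are list medians) and for the 6 tested genes of the growth hormone and prolactin set (diamonds). List medians run from -0.02 to 0.03, and the set's genes fall in 2 groups of 3 on either side of 0.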

How the data were processed

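Per the file headers, the 4 arrays (design 026440, 1 slide, 1 scan time) were quantified by the authors with Agilent Feature Extraction 10.7.3.1. For each spot the authors deposited linear intensity values. Their scanner files also give a deposited log10 ratio, Cy5 over Cy3. The deposited series matrix holds log2 ratios, within 0.01 of the scanner's processed log2 ratios for 99.93% of probes, uncentred, with treated over control by the channel labels.

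Median foreground signals were background-corrected with normexp (offset 50) and loess-normalized within arrays, control spots at weight 0. Spots of uneven local background (939 to 1350 of 43803 per array, which removed the CGA probe on 4 arrays) and outlier spots were left out. No spot was saturated, and 25097 to 29738 probes per channel were well above background. Tested probes (25918, 875 of them on 3 arrays) were well above background in the treated or the control channel on at least 3 arrays. limma 3.58.1 in R 4.3.3 fitted a dye and a treatment term (eBayes, two-sided, Benjamini-Hochberg over all tested probes, threshold 0.05, 2 residual degrees of freedom). The number of arrays limits the precision. Where a gene had several tested probes, the brightest stood for it. RefSeq annotation of Sscrofa11.1 named 5578 of 43603 probes. Levels by array used loess followed by Aquantile scaling.

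The genes and lists were chosen with earlier results of these data known. Besides the set, the text names the 3 genes of smallest p per list, the 3 nearest patterns, and the first gene of marker lists where tested. Some genes that this rule names are not reported here. Sequences were not used here.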

Additional observations from a re-analysis of the deposited data

How the results depend on the processing

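When Cy5 was read as treated throughout, 2331 probes had a limma adjusted p under 0.05, but dye and treatment cannot be told apart under that reading. In the other settings with 4 arrays, the count of 0 such probes by limma stayed 0. With 1 array left out it ran from 0 to 832 (725 without array 2, 832 without array 4, 1 without array 3, 0 without array 1). Those fits leave 1 residual degree of freedom, and 1 dye orientation rests on a single array. The ratios of POU1F1, SSTR5 and SOCS2 kept their sign in every planned setting with 4 arrays and the channel labels, as did GHR. Median centring turned GH1 (0.0092) and PRL (0.0299). Cy5 as treated throughout turned GH1 (0.14), PRL (0.0495), GHR (-0.10) and SOCS2 (-0.0371), and brought SSTR5 to 0.01 and POU1F1 to -0.04. Each of these values equals the gene's dye term in the main fit, so none separates treatment from dye. The ratio ranges with 1 array left out were -0.18 to -0.004 for GH1, -0.17 to 0.02 for PRL, -0.13 to -0.03 for POU1F1, 0.07 to 0.10 for SSTR5, 0.08 to 0.14 for GHR and 0.12 to 0.25 for SOCS2. Without array 2 PRL turned (0.0205) and SOCS2 passed the threshold. The cause was not tested. The SOCS2 interval held 0 with no background subtraction, with median centring and without the dye term. It also held 0 without array 1, without array 3 and without array 4. Dim signals limit POU1F1, SSTR5, GHR and SOCS2, whose ratios lay farther from 0 with no offset (-0.14, 0.14, 0.17 and 0.23). Of the level spans, recomputed under 3 scalings added after the data were seen, that of the first PRL probe ran from 0.94 to 1.22. No paired analysis was possible beyond the pairing on each array, because no further number links the RNAs.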
